A study of Mus musculus with 35 samples.

Results

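The response of the mouse heart to transverse aortic constriction (TAC) was compared between 2 knockout lines, one lacking Irs1 (IRS1KO) and one lacking Irs2 (IRS2KO) in cardiomyocytes. For every gene the change from sham to TAC in IRS1KO was set against the same change in IRS2KO, and the quantity described here is the IRS1KO change minus the IRS2KO change on the log2 scale. A value above 0 means that the gene rose more, or fell less, in IRS1KO. The comparison used 24 of the 35 libraries, 6 in each of 4 groups, and 13695 of the 27012 genes in the table, those with a mean normalized count of at least 10. The IRS1KO mice carried alphaMHC-Cre with IRS1-flox, and the IRS2KO mice alphaMHC-Cre with IRS2-flox. The WT mice, which served here as a reference for levels, carried IRS2-flox without Cre. All were C57Bl/6/FVB mice, aged 6 weeks, and were killed on day 3 after TAC or sham surgery, and RNA came from the apex. The alphaMHC promoter drives Cre in cardiomyocytes, so the other cells of the apex keep both genes. No group had Cre alone, and no group had IRS1-flox without Cre, so against WT a knockout cannot be told apart from the Cre or from its breeding line. Both knockouts carried alphaMHC-Cre, and between them the missing gene cannot be told apart from the breeding line. Nothing in the labels says that libraries come from separate mice, and p-values measure the spread between libraries, which may be partly technical.

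TAC narrows the aortic arch and loads the left ventricle with pressure, and within days the heart raises natriuretic peptide genes and matrix genes and lowers genes of mitochondrial metabolism. IRS1 and IRS2 are adaptor proteins that bind the activated insulin and IGF1 receptors and pass the signal to PI3-kinase and AKT. AKT keeps the FoxO transcription factors out of the nucleus, and FoxO factors raise genes of protein breakdown, autophagy and glutamine synthesis.

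Each library held 11707111 to 14609467 reads recovered from the normalized counts. Irs1 ran from 0 to 43.8 normalized counts in IRS1KO sham hearts and from 0 to 80.3 in IRS1KO TAC hearts, below every IRS2KO library (146 to 343). Irs2 ran from 98.1 to 138 in IRS2KO sham hearts and from 78.6 to 196 in IRS2KO TAC hearts, against 225 to 504 and 185 to 959 in IRS1KO. WT libraries held 93.04 to 564 (median 163) in sham and 129.8 to 303 (median 252) in TAC hearts, so every IRS2KO sham library lay within the WT sham range, and the TAC groups overlapped too. Irs1 in WT, 134.9 to 310 over both groups, lay above every IRS1KO library. The 2 genotypes did not overlap in Irs1, whereas their TAC libraries overlapped in Irs2. Reads from the mitochondrial genome made up 26.4% to 31.3% of the reads in the sham libraries of both knockouts and 15.6% to 23.6% in 10 of their 12 TAC libraries. IRS2KO TAC replicate 4 (28.0%) and replicate 1 (26.1%) stood apart from the other TAC libraries and lay near or within the sham range. IRS1KO TAC replicate 5 had the highest Irs1 of its group (80.3, the others at 0 to 26.7) and the highest mitochondrial share of its group (23.6%). The part these libraries take in the results was measured by leaving them out.

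Most genes responded to TAC to a like degree in the 2 genotypes, and 56 genes (0.409% of those tested) differed in their response at an adjusted p under 0.05. Of these, 36 (0.263%) had a difference above 0 and 20 (0.146%) below 0, and these 56 are called in what follows. TAC itself changed 8777 genes (64.1%) in IRS1KO, 4442 (32.4%) upward and 4335 (31.7%) downward, and 8546 genes (62.4%) in IRS2KO, 4286 (31.3%) upward and 4260 (31.1%) downward. Among them 3642 rose in both genotypes, 3436 fell in both, and 26 changed in opposite directions. Across the 13695 genes, which are not independent replicates, the 2 responses had a Pearson correlation of 0.94 and a Spearman correlation of 0.90, given as a description. The difference itself had a median of 0.00 and quartiles of -0.15 and 0.15. At an unadjusted p under 0.05 there were 1566 genes (11.4%), 926 above and 640 below 0.

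The number of called genes rested on single libraries. It lay between 17 and 37 without any 1 of IRS1KO sham replicates 1, 2 and 5, IRS1KO TAC replicates 1, 2, 3 and 4, IRS2KO sham replicates 1, 3, 4, 5 and 6, and IRS2KO TAC replicates 4, 5 and 6. It was 88 without IRS2KO sham replicate 2 and 180 without IRS1KO TAC replicate 5. Without the 3 TAC libraries of highest mitochondrial share (IRS2KO replicates 1 and 4 and WT replicate 2) it was 360, and those included all 56. This omission was chosen after seeing the data and takes out no IRS1KO library. The share was itself lower in most TAC than in sham libraries, so the rule selects libraries by an outcome of TAC. Genes that passed only there are not counted as called. In all 24 fits that each left out 1 library, 15 genes were called: Acta2, Cd200, Nxpe4, Plekha7, Mgp, Phyhip, Limd1, Glul, Trp53inp1, Ano10, Epb41l3, Meis1, Pirt, Efhd1 and Elovl7. Another 29 of the 56 were called in fewer than 12 of the 24 fits, so most single omissions ended those calls. None of the 56 changed sign in any of these fits or alternatives. Efhd1 and Elovl7 fall outside the rule for naming genes and were chosen after their values were seen. So were Lrat, Rab40b, Nox4, Glns-ps1, Gm45012, Atg13, Rb1cc1 and Col28a1 below.

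**Figure D1:**
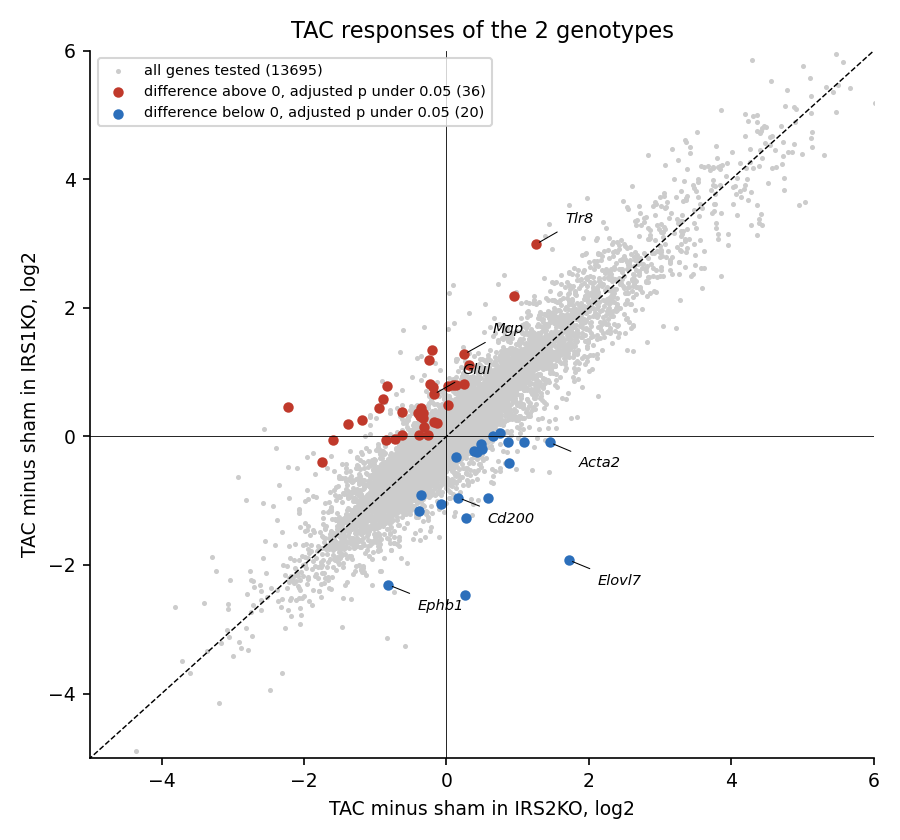
The log2 change from sham to TAC in IRS2KO (x axis) and in IRS1KO (y axis), with a grey point for each of the 13695 genes tested, red and blue for the 36 genes called above 0 and the 20 called below 0, and a dashed line where both changes are equal. Most grey points follow the dashed line, while many of the called genes lie near 0 on one of the axes; 9 genes lie outside the axes' limits.

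Most called genes differed between the genotypes in sham hearts, and less so in TAC hearts. In sham hearts 47 of the 56 differed between IRS1KO and IRS2KO (8.3% of all genes tested did), and in TAC hearts 17 (2.36% of all genes tested). The sham libraries of the 2 genotypes did not overlap for 39 of the 56 (7.82% of all genes tested), and the TAC libraries for 11 (1.56%). The median size of the genotype difference was 0.62 in sham hearts and 0.31 in TAC hearts. It was larger in sham than in TAC hearts for 45 of the 56 genes. These contrasts use the same libraries as the difference that chose the genes, so the shares describe where the difference lies and support nothing further.

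By response, 15 of the 56 genes changed in opposite directions in the 2 genotypes. Another 15 changed in IRS1KO alone by the threshold, 19 in IRS2KO alone, and 7 in the same direction in both by different amounts. Of the 36 genes above 0, 24 rose in IRS1KO and 22 fell in IRS2KO. Among the 20 below 0, 13 fell in IRS1KO and 12 rose in IRS2KO.

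**Figure D2:**
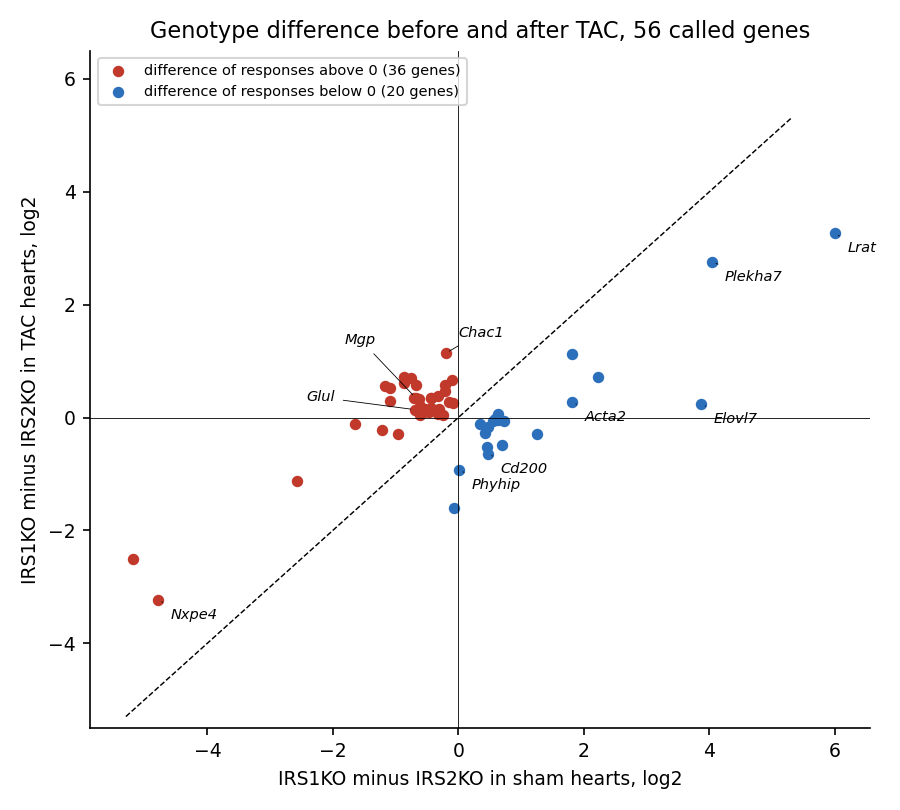
The log2 difference between IRS1KO and IRS2KO in sham hearts (x axis) and in TAC hearts (y axis), one point for each of the 56 called genes, with a dashed line where both are equal. For 45 genes the point is farther from 0 on the sham axis than on the TAC axis; Phyhip and Chac1 are among the others.

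Acta2, the smooth muscle alpha-actin that marks smooth muscle cells and activated fibroblasts, rose after TAC in IRS2KO and was high in sham hearts of IRS1KO. It lies at chr19:34241090-34255590 of GRCm38. The sequence below is shown because Acta2 leads the comparison and its promoter is a textbook target of serum response factor, which binds CArG boxes. It is the RefSeq window from 250 bases before to 50 bases after the start site (GRCm38.p6, minus strand, chr19:34255324-34255623), written 5′ to 3′, with CArG-like boxes in capitals.
Acta2 promoter: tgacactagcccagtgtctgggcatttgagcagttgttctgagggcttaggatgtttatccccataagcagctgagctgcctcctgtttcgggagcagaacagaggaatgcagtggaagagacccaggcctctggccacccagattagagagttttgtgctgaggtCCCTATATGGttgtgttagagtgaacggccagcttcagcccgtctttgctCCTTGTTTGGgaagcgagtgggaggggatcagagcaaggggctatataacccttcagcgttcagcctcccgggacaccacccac
A CArG box was searched as CC, 6 bases of A or T, and GG on both strands, and a CArG-like box as the same with 1 G or C among the 6. The window holds no strict CArG box and 2 CArG-like boxes, which end 74 and 24 bases before the RefSeq start site. These distances hold for that annotated start site only, and the gene end given above, 34255590, is another position. Of 32851 RefSeq windows of this length 9.98% hold a CArG or CArG-like box and 0.822% hold 2 or more. Among the 44 called genes with a window, 10 hold at least 1 (22.7%, against 11.3% of all genes with a window), and Acta2 alone holds 2 or more; such a match is a match of letters, not a measured binding site.

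In IRS1KO sham hearts Acta2 ran from 4409 to 6589 (median 5803) normalized counts, and in IRS1KO TAC hearts from 3549 to 6024 (median 5604). In IRS2KO it ran from 1387 to 1843 (median 1525) in sham hearts and from 2941 to 5739 (median 4745) in TAC hearts. Every IRS1KO sham library lay above every IRS2KO sham library, the IRS1KO groups overlapped, and the IRS2KO groups did not. The fold from sham to TAC was 2.78 in IRS2KO (log2 1.45, adjusted p = 6.7e-09) and the log2 change in IRS1KO was -0.09, adjusted p = 0.62. The difference of the responses was -1.54 (SE 0.22, adjusted p = 0.00042). Between the genotypes Acta2 was 3.53-fold higher in IRS1KO sham hearts (log2 1.81, adjusted p = 2.0e-10), while in TAC hearts the log2 difference was 0.27, adjusted p = 0.54. The WT means were 1990 ± 366 in sham hearts (SD, n = 6) and 2940 ± 789 in TAC hearts (SD, n = 5), so the IRS1KO sham hearts were the sham group that stood apart. The highest adjusted p over the fits without 1 library was 0.0015.

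No other gene of the smooth muscle contractile list was called in this comparison. The list, which holds myosin, calponin, tropomyosin and related genes, had 13 members tested, 7 above 0 and 6 below, with a median of 0.01 against 0.00 for all genes. The 12 members other than Acta2 ran from -0.96 to 0.48, with a lowest adjusted p of 0.33. The mean log2 level of the list, relative to the 24 libraries, was -0.38 to -0.22 (median -0.32) in IRS1KO sham, 0.23 to 0.62 (median 0.35) in IRS1KO TAC, -0.62 to -0.25 (median -0.43) in IRS2KO sham and 0.11 to 0.67 (median 0.33) in IRS2KO TAC. The list as a whole was thus higher in TAC than in sham libraries of both genotypes, with no overlap, unlike Acta2. Of 19 serum response factor target genes tested, Acta2, given with the comparison, was the 1 called (5.26%, against 0.409% of all genes tested). The pericyte list had 0 of 10 called and a median of -0.08. Actc1, the cardiac actin whose coding sequence is close to that of Acta2, had means of 133728, 135820, 134064 and 163311 in IRS1KO sham, IRS1KO TAC, IRS2KO sham and IRS2KO TAC hearts and a difference of -0.26, adjusted p = 0.51. How reads shared by both actins were counted was not stated in the sources used here.

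**Figure D3:**
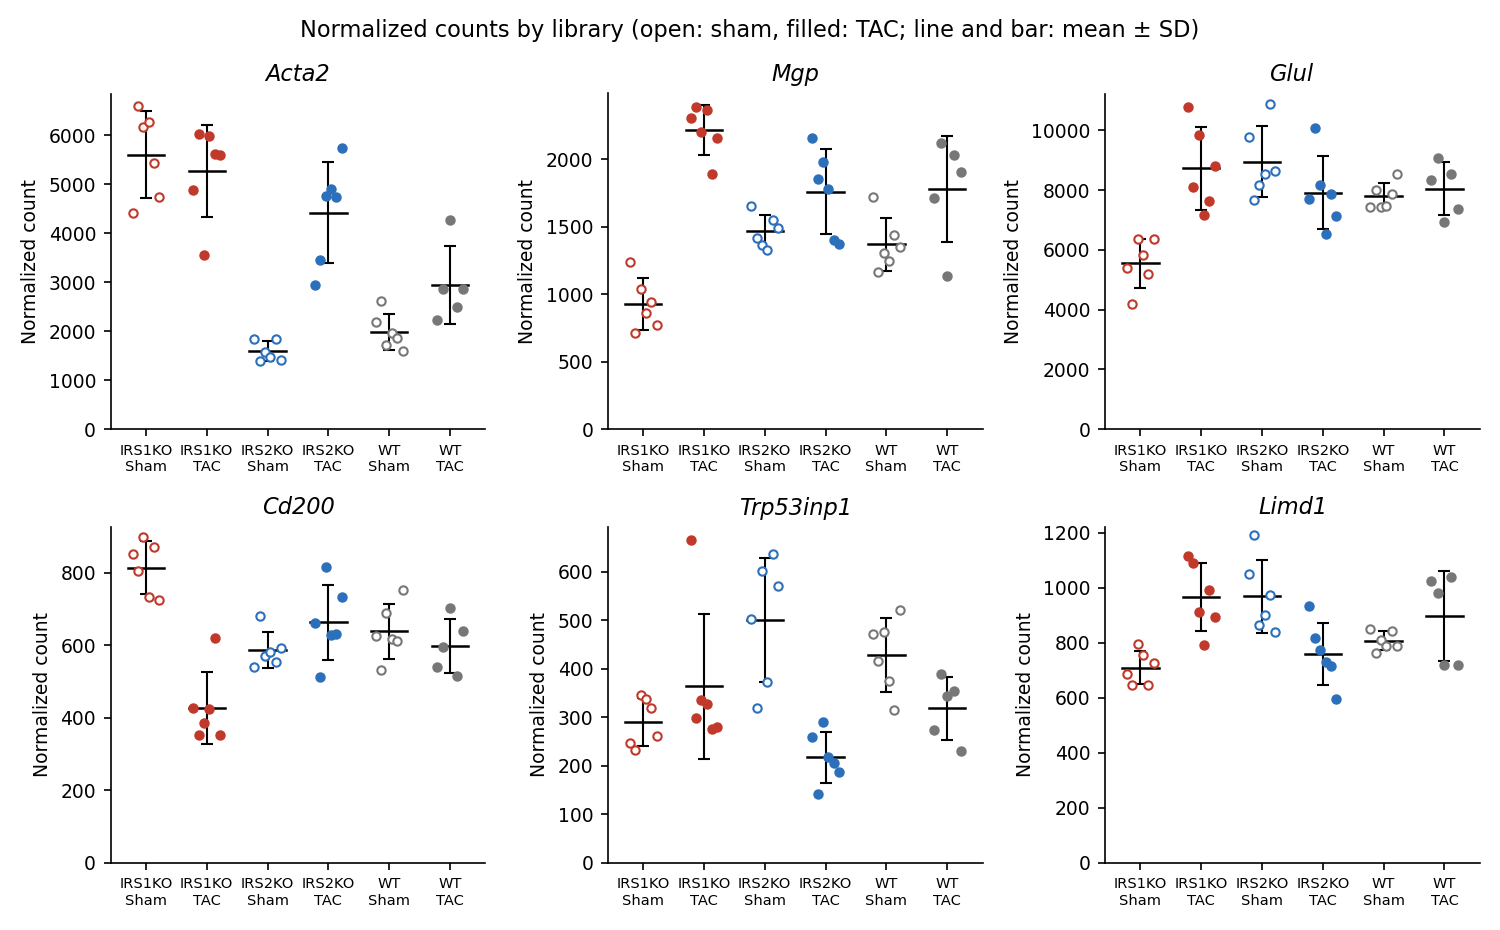
Normalized counts (y axis, from 0) of Acta2, Mgp, Glul, Cd200, Trp53inp1 and Limd1 in every library of the 6 groups (x axis), open circles for sham and filled for TAC, with the mean and SD of each group. The 6 IRS1KO sham hearts sit apart from the other sham groups for Acta2 (above) and Glul (below), while the TAC groups of the 2 knockouts overlap.

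Mgp, which encodes matrix Gla protein, a vitamin K dependent inhibitor of calcification, rose after TAC in IRS1KO. It lies at chr6:136872435-136875823. In IRS1KO it ran from 716 to 1242 (median 898) in sham hearts and from 1889 to 2388 (median 2254) in TAC hearts, with no overlap. The IRS2KO ranges, 1327 to 1652 (median 1454) in sham and 1375 to 2157 (median 1817) in TAC hearts, overlapped. The log2 change was 1.28, adjusted p = 1.8e-09, in IRS1KO and 0.25, adjusted p = 0.11, in IRS2KO, and the difference was 1.03 (SE 0.19, adjusted p = 0.0072). Sham hearts of IRS1KO held less Mgp than those of IRS2KO (log2 -0.68, adjusted p = 0.00064), without overlap, and in TAC hearts the log2 difference was 0.35, adjusted p = 0.21. The WT means were 1371 ± 195 in sham and 1782 ± 391 in TAC hearts. Of 13 mineralization and vitamin K dependent genes tested, Mgp, given with the comparison, was the 1 called (7.69%, against 0.409% of all genes tested). In that list 10 had a difference above 0 (76.9%, against 6867 of all 13695), with a median of 0.12.

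Glul encodes glutamine synthetase, which joins ammonia to glutamate, and it rose after TAC in IRS1KO. It lies at chr1:153899944-153909723. IRS1KO libraries ran from 4182 to 6366 (median 5609) in sham hearts and from 7157 to 10796 (median 8448) in TAC hearts. IRS2KO libraries ran from 7688 to 10900 (median 8587) in sham hearts and from 6526 to 10097 (median 7774) in TAC hearts. All 6 IRS1KO sham hearts lay below every other library of the 4 groups, and the other 3 groups overlapped. The log2 change was 0.65, adjusted p = 7.4e-06, in IRS1KO, a 1.57-fold rise, and -0.18, adjusted p = 0.15, in IRS2KO. The difference was 0.83 (SE 0.16, adjusted p = 0.0096), and the WT means were 7800 ± 442 in sham and 8049 ± 882 in TAC hearts. Glns-ps1, a processed pseudogene copy of glutamine synthetase, had a like difference (1.05 (SE 0.23, adjusted p = 0.038)) at means of 32.1 and 56.5 in IRS1KO sham and TAC hearts, and reads of the 2 copies may not have been told apart. It was called in 12 of the 24 fits without 1 library (highest adjusted p 0.091, without IRS1KO TAC replicate 1, its highest library of that group) and not by edgeR (adjusted p = 0.052). Of 19 genes of glutamine, glutamate and ammonia enzymes tested, Glul, given with the comparison, was the 1 called (5.26%, against 0.409% of all genes tested). The list median was 0.12.

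Cd200, a membrane protein that signals to an inhibitory receptor on myeloid cells, fell after TAC in IRS1KO. IRS1KO libraries ran from 724 to 898 (median 829) in sham and from 352 to 619.5 (median 406) in TAC hearts, with no overlap. The IRS2KO libraries ran from 539.96 to 682 (median 577) and from 513 to 816 (median 646), and these groups overlapped. The difference was -1.12 (SE 0.16, adjusted p = 0.00042). The genotypes were crossed: Cd200 was higher in IRS1KO than in IRS2KO in sham hearts (log2 0.47, adjusted p = 0.0051) and lower in TAC hearts (log2 -0.65, adjusted p = 0.00021). IRS1KO TAC replicate 5, at 619.5, was the highest of its group, and without it the call remained, as it did without any other single library (highest adjusted p 0.0013). The WT means were 638 ± 75.3 and 599 ± 74.9.

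Trp53inp1 and Limd1 fell in IRS2KO and lay lower in IRS1KO than in IRS2KO sham hearts. Trp53inp1, a stress-induced target of p53 with a role in autophagy, ran from 319 to 636 (median 537) in IRS2KO sham hearts and from 142 to 289.8 (median 213) in IRS2KO TAC hearts, without overlap. Its IRS1KO ranges, 232 to 347 (median 290.2) in sham and 276 to 666 (median 313) in TAC hearts, overlapped, and the top TAC value was that of replicate 1. The difference was 1.46 (SE 0.28, adjusted p = 0.0096), with a change of -1.19, adjusted p = 4.7e-06, in IRS2KO and 0.26, adjusted p = 0.24, in IRS1KO. Among 15 p53 target genes tested it was the 1 called (6.67%, against 0.409% of all genes tested), and the list had a median of 0.07. Limd1, a LIM-domain scaffold protein, rose in IRS1KO from a mean of 710.1 ± 60.1 to 966 ± 123 and fell in IRS2KO from 969.8 ± 133 to 761 ± 113 (SD, n = 6 each). Its difference was 0.79 (SE 0.15, adjusted p = 0.0081).

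For a few genes the 2 knockouts lay far apart in sham hearts, and the gap was smaller in TAC hearts. Nxpe4 ran from 3.23 to 11.4 (median 7.19) in IRS1KO sham and 13.6 to 27.1 (median 19.6) in IRS1KO TAC hearts, against 210.3 to 242 (median 219) and 156 to 246 (median 193) in IRS2KO. No IRS1KO library overlapped an IRS2KO library. Its difference was 1.55 (SE 0.23, adjusted p = 0.00067), with a sham gap of -4.79 and a TAC gap of -3.24. The WT means, 236 ± 15.4 and 189 ± 19.1, were close to those of IRS2KO. Plekha7, an adherens junction protein, was the mirror image, at 384 to 521 (median 475) and 236 to 442 (median 352) in IRS1KO against 21.8 to 36.1 (median 25.9) and 37.2 to 70.3 (median 49.2) in IRS2KO. Its difference was -1.29 (SE 0.22, adjusted p = 0.0027): it fell in IRS1KO (log2 -0.41, adjusted p = 0.02) and rose in IRS2KO (log2 0.87, adjusted p = 1.3e-05). The WT means were 22.4 ± 4.87 and 37.3 ± 7.07. Ephb1, a receptor for ephrin-B ligands, fell from 206 ± 72.5 to 41.5 ± 16.4 in IRS1KO and from 41.5 ± 4.55 to 24.3 ± 9.88 in IRS2KO, with a difference of -1.50 (SE 0.32, adjusted p = 0.034). Mboat2, a lysophospholipid acyltransferase, had means of 206 and 182 in IRS1KO and 57.9 and 83.8 in IRS2KO, and a difference of -0.70 (SE 0.16, adjusted p = 0.046). Of the 24 fits without 1 library, Ephb1 was called in 16 and Mboat2 in 5, with the highest adjusted p (0.072 and 0.11) without IRS1KO TAC replicate 1.

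Among lower-level genes, Elovl7, a fatty acid elongase, had the largest difference, -3.64 (SE 0.59, adjusted p = 0.0014). It fell in IRS1KO from 52.6 ± 26.4 to 10.6 ± 2.08 and rose in IRS2KO from 2.43 ± 1.82 to 9.33 ± 3.62, and the TAC groups overlapped. The size of the Elovl7 difference rests in part on values near 0, as IRS2KO sham libraries ran from 0 to 5.39. IRS1KO sham replicate 5, at 6.78, lay below the 7.93 to 14.2 of IRS1KO TAC hearts, while its group reached 82.8. Lrat, which esterifies retinol, ran from 47.5 to 108 in IRS1KO sham hearts and from 4.76 to 70.4 in IRS1KO TAC hearts, and at most 2.13 in IRS2KO. Its difference of -2.73 (SE 0.63, adjusted p = 0.044) rests on values near 0 in IRS2KO and was not called by edgeR (adjusted p = 0.68) or DESeq2 (adjusted p = 0.49). Lrat was called in 4 of the 24 fits without 1 library, with a highest adjusted p of 0.086 without IRS2KO TAC replicate 6, and in 3 of the 11 alternatives that tested it. IRS1KO TAC replicate 5 held the highest Lrat of its group, 70.4, against 4.76 to 21.4 in the others. Rab40b had means of 8.05 and 18.6 in IRS1KO and 49.6 and 41.1 in IRS2KO (difference 1.44, adjusted p = 0.043), and was called in 6 of the 24 fits without 1 library, with the highest adjusted p (0.087) without IRS2KO sham replicate 5, its highest library of that group at 78.2. The antisense transcript Gm45012 was near 0 in IRS1KO and fell from 40.8 ± 8.25 to 9.88 ± 7.25 in IRS2KO (difference 2.69, adjusted p = 0.029), and edgeR did not call it (adjusted p = 0.2). Whether the counting used strand was not stated in the sources used here.

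In a second kind of pattern the genotypes parted after TAC, with no call in sham hearts. Phyhip ran from 186 to 233 (median 199.9) in IRS1KO sham and 130.2 to 249 (median 199) in IRS1KO TAC hearts, and from 172 to 240.4 (median 202) in IRS2KO sham and 299 to 465 (median 363) in IRS2KO TAC hearts. The 2 sham groups and the IRS1KO TAC group overlapped, and every IRS2KO TAC library lay above them. Its difference was -0.95 (SE 0.17, adjusted p = 0.008), with a genotype difference of 0.01, adjusted p = 0.98, in sham and -0.94, adjusted p = 2.3e-06, in TAC hearts. Efhd1, a mitochondrial calcium-binding protein, ran from 20.4 to 26.2 (median 23.7) in IRS1KO sham and 7.74 to 14.9 (median 12.3) in IRS1KO TAC hearts, and from 19.3 to 32.1 (median 25.3) and 33.5 to 50.6 (median 35.9) in IRS2KO. It fell in IRS1KO and rose in IRS2KO without overlap of sham and TAC libraries in either, and its difference was -1.53 (SE 0.24, adjusted p = 0.0012). Chac1, a glutathione-degrading enzyme and a target of the integrated stress response, fell in IRS2KO (log2 -1.74, adjusted p = 8.3e-08), while its change in IRS1KO was -0.40, adjusted p = 0.11. The Chac1 TAC groups did not overlap, and the difference was 1.34 (SE 0.31, adjusted p = 0.044). Mpp7, a polarity scaffold protein, rose in IRS1KO from 95.8 ± 14.3 to 165 ± 17.98, against 102 ± 13.3 and 105 ± 18.6 in IRS2KO, with a difference of 0.76 (SE 0.18, adjusted p = 0.046). Chac1 was called in 7 and Mpp7 in 6 of the 24 fits without 1 library, with the highest adjusted p (0.099 and 0.1) without IRS1KO TAC replicate 1. Among the 30 genes of the unfolded protein and integrated stress response tested, Chac1 was the 1 called (3.33%, against 0.409% of all genes tested). The list median was 0.09.

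The other named genes below 0 were mostly higher in IRS1KO than in IRS2KO sham hearts. Pirt, a regulator of TRP channels, rose in IRS2KO from 196 ± 51.7 to 409 ± 74.2, against 309 ± 51.3 and 294 ± 77.00 in IRS1KO, with a difference of -1.18 (SE 0.24, adjusted p = 0.018). Meis1, a homeobox factor linked to the cell cycle exit of cardiomyocytes, rose in IRS2KO from 185 ± 14.5 to 252 ± 39.5 and fell in IRS1KO from 287 ± 14.03 to 245 ± 34.9, with a difference of -0.67 (SE 0.13, adjusted p = 0.018). Ano10 fell in both, from 584 ± 75.9 to 309 ± 22.5 in IRS1KO and from 376 ± 30.8 to 294 ± 22.4 in IRS2KO, with a difference of -0.56 (SE 0.11, adjusted p = 0.013). These 3 kept their calls without any single library. Itgb6, the integrin beta-6 subunit that helps to activate latent TGF-beta, fell in IRS1KO from 174 ± 32.03 to 72.9 ± 18.4, against 73.9 ± 19.6 and 91.3 ± 34.2 in IRS2KO. Its difference was -1.55 (SE 0.32, adjusted p = 0.022) and lost its call without IRS1KO TAC replicate 1 (adjusted p = 0.0505). Klhl40, a muscle protein that stabilizes thin filament proteins, rose in IRS2KO (log2 0.76, adjusted p = 1.8e-06) and so did Pde4b, a cAMP phosphodiesterase (log2 0.65, adjusted p = 6.0e-06). In IRS1KO the changes of Klhl40 and Pde4b were 0.05 and 0.01, and their differences were -0.70, adjusted p = 0.044, and -0.64, adjusted p = 0.049. The remaining named genes below 0 were Cep128 (-0.78), Mtus2 (-0.62), Samd1 (-0.60) and Pdcd7 (-0.45), with adjusted p of 0.037, 0.046, 0.037 and 0.03. Of the 24 fits without 1 library, Pde4b and Mtus2 were called in 4, Klhl40 in 5, Samd1 in 13, Cep128 in 14 and Pdcd7 in 17. The highest adjusted p was 0.068 to 0.11, without IRS2KO sham replicate 5 for Pde4b and Pdcd7 and without IRS1KO TAC replicate 1 for the other 4.

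The other named genes above 0 were lower in IRS1KO than in IRS2KO sham hearts or parted after TAC. Epb41l3, which links the membrane to the cytoskeleton, rose in IRS1KO from 54.6 ± 6.39 to 71.3 ± 10.7 and fell in IRS2KO from 128 ± 14.03 to 84.2 ± 18.4, with a difference of 0.99 (SE 0.19, adjusted p = 0.013). It kept its call without any single library (highest adjusted p 0.034). Tlr8, an endosomal sensor of RNA, rose in both, from 17.6 ± 4.90 to 155 ± 58.9 in IRS1KO and from 39.95 ± 4.14 to 103 ± 37.3 in IRS2KO, with a difference of 1.73 (SE 0.39, adjusted p = 0.038). Nox4, a NADPH oxidase, also rose in both, from 13.04 to 62.1 and from 20.8 to 41.4 (difference 1.25, adjusted p = 0.045). Slc43a2, a transporter of neutral amino acids, rose in IRS1KO from 273 ± 19.2 to 482 ± 94.6, while its change in IRS2KO was 0.13, adjusted p = 0.29, and the difference was 0.67 (SE 0.15, adjusted p = 0.039). Pygl, a glycogen phosphorylase, rose by 1.12 in IRS1KO and 0.31 in IRS2KO on the log2 scale, with a difference of 0.81 (SE 0.19, adjusted p = 0.048). Rlf (0.70, adjusted p = 0.027) rose in IRS1KO, and Fam124a (0.96, adjusted p = 0.039) did too.

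Rasgef1b, Lrrc58, Mgat4a and Pgm2l1 rose in IRS1KO and fell in IRS2KO, with differences of 1.47, 0.78, 0.69 and 0.68 and adjusted p of 0.029, 0.037, 0.046 and 0.046. Fam117b fell in IRS2KO from 666 ± 204 to 252 ± 70.6, with a change in IRS1KO of 0.20, adjusted p = 0.51, and a difference of 1.58 (SE 0.36, adjusted p = 0.044). Among the named genes of this and the preceding set other than Epb41l3, Mgat4a was called in 5 of the 24 fits without 1 library, Fam117b and Pygl in 6, Nox4 and Pgm2l1 in 7, Tlr8 in 8, Fam124a in 9, Slc43a2 in 10, Lrrc58 in 11, Rasgef1b in 17 and Rlf in 19. Their highest adjusted p ran from 0.063 to 0.1, without IRS2KO sham replicate 5 for Rlf, Rasgef1b, Lrrc58 and Fam124a and without IRS1KO TAC replicate 1 for the other 7. The 11 other called genes, 10 above 0 and 1 below, had differences of 0.29 to 1.61 and -0.97. Col28a1, given with the collagen genes, is among them. The top Rasgef1b value after TAC in IRS1KO came from replicate 1, at 259 against 78.3 to 139 in the others.

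Of 27 genes of the FoxO list tested, 3 were called (11.1%, against 0.409% of all genes tested), all of them above 0. TAC lowered 18 members in IRS1KO and 22 in IRS2KO, and raised 3 and 0. The list holds FoxO factors and their targets, and 26 of the 27 had a difference above 0 (median 0.43, against 0.00 for all genes, of which 6867 of 13695 were above 0). The members of every list were chosen with earlier results of these data known, and Glul was given with the comparison. The shares of this and the other lists are therefore a description and support nothing further for FoxO activity. The 1 member below 0 was Sod2, mitochondrial superoxide dismutase (-0.07, adjusted p = 0.96). The called members were Glul, described above, Gabarapl1 and Bnip3. Gabarapl1, an ATG8-family protein of the autophagosome, ran from 832 to 926 (median 886) in IRS1KO sham and 822 to 1213 (median 853) in IRS1KO TAC hearts, and from 986 to 1633 (median 1256) and 708 to 998 (median 839.8) in IRS2KO. It fell in IRS2KO and its difference was 0.66 (SE 0.15, adjusted p = 0.044). The IRS1KO TAC maximum was again replicate 1, without which the adjusted p was 0.098. Bnip3, a receptor for mitophagy, ran from 757 to 979 (median 885) and 716 to 1104 (median 787) in IRS1KO and from 829 to 1261 (median 1035) and 359.96 to 789 (median 573) in IRS2KO sham and TAC hearts. It fell in IRS2KO without overlap, and its difference was 0.79 (SE 0.19, adjusted p = 0.045). Without IRS1KO TAC replicate 1 the adjusted p for Bnip3 was 0.1, and edgeR gave an adjusted p of 0.063. Gabarapl1 and Bnip3 were each called in 7 of the 24 fits without 1 library, and Glul in all 24.

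The remaining members of the FoxO list did not pass the threshold. The factors themselves, Foxo1 and Foxo3, had differences of 0.21, adjusted p = 0.73, and 0.68, adjusted p = 0.34. The muscle ubiquitin ligases Fbxo32 and Trim63, markers of atrophy, had 0.65, adjusted p = 0.4, and 0.48, adjusted p = 0.35. Fbxo32 means were 2800 ± 215 and 1786 ± 461 in IRS1KO sham and TAC hearts and 3374 ± 441 and 1484 ± 688 in IRS2KO. The mitophagy receptor Bnip3l had 0.43, adjusted p = 0.074. The summary level of the list, the mean log2 level relative to the 24 libraries, was 0.10 to 0.25 (median 0.24) in IRS1KO sham, -0.45 to 0.33 (median -0.26) in IRS1KO TAC, 0.31 to 0.63 (median 0.40) in IRS2KO sham and -0.86 to -0.14 (median -0.46) in IRS2KO TAC hearts. The 2 sham groups did not overlap, the TAC groups did, and the highest IRS1KO TAC library was replicate 1. In WT the same level was 0.28 to 0.39 (median 0.33) in sham and -0.38 to 0.17 (median -0.25) in TAC hearts. The omission of the 3 TAC libraries of highest mitochondrial share was chosen after seeing the data and left out IRS2KO TAC replicates 1 and 4. In that fit Foxo3 (limma adjusted p = 0.013), Fbxo32 (0.022), Bnip3l (0.0081) and Tsc22d3 (0.022) passed the threshold, without counting as called. With all libraries DESeq2 also put Bnip3l (adjusted p = 0.025) and Tsc22d3 (0.017) past the threshold, but not Foxo3 (0.38) or Fbxo32 (0.475).

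Atg13 and Rb1cc1, subunits of the kinase complex that starts autophagy, were also called above 0 and stood in no list. Atg13 rose in IRS1KO from 749 ± 55.3 to 1059 ± 125, against 948 ± 63.6 and 957 ± 45.5 in IRS2KO (difference 0.48, adjusted p = 0.038). Rb1cc1 fell in IRS2KO from 1368 ± 77.2 to 1045 ± 76.2, against 1242 ± 105 and 1260 ± 97.00 in IRS1KO (difference 0.41, adjusted p = 0.029). Atg13 was called in 10 and Rb1cc1 in 19 of the 24 fits without 1 library, with the highest adjusted p without IRS1KO TAC replicate 1 (0.092) and IRS2KO sham replicate 5 (0.064). Of 23 autophagy and lysosome genes tested, 1 was called (Gabarapl1; 4.35%, against 0.409% of all genes tested), 15 were above 0 (65.2%, against 6867 of all 13695), and the median was 0.13. Of 46 insulin and IGF signalling genes tested, none was called, 35 were above 0, and the median was 0.11.

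Genes that respond to glucocorticoids had the highest list median, and no member passed the threshold. Of 16 members tested, 13 were above 0 and the median was 0.83. At an unadjusted p under 0.05 there were 11 of the 16, against 11.4% of all genes tested. Fkbp5, a chaperone of the glucocorticoid receptor complex and a classic target of it, ran from 184 to 635 (median 384) in IRS1KO sham and 513 to 2461 (median 1220) in IRS1KO TAC hearts, and from 472 to 1457 (median 1167) and 465 to 1216 (median 811) in IRS2KO. It rose in IRS1KO (log2 1.70, adjusted p = 0.00018), while its change in IRS2KO was -0.31, adjusted p = 0.48, and the difference was 2.01 (SE 0.52, adjusted p = 0.078). The IRS1KO groups overlapped at 1 TAC library, replicate 5 (513), and the highest was replicate 1 (2461). Tsc22d3, which encodes the leucine zipper protein GILZ, fell in IRS2KO from 1886 ± 299 to 866 ± 167, against 1605 ± 266 and 1425 ± 349 in IRS1KO (difference 0.95, adjusted p = 0.07). DESeq2 put both past the threshold (adjusted p = 0.018 and 0.017), and without IRS1KO TAC replicate 1 the limma values were 0.16 and 0.15. Without the 3 TAC libraries of highest mitochondrial share, an omission chosen after seeing the data, they were 0.064 and 0.022.

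Other members of the glucocorticoid list gave like values at larger spread. The cell cycle inhibitor Cdkn1a had means of 261 ± 84.1 and 855 ± 309 in IRS1KO and 706 ± 322 and 684 ± 242 in IRS2KO (difference 1.64, adjusted p = 0.086). Pdk4, which blocks pyruvate oxidation, had 14640 ± 3604 and 9079 ± 7472 in IRS1KO and 32820 ± 5530 and 5759 ± 2298 in IRS2KO (difference 1.55, adjusted p = 0.21). Metallothionein genes Mt1 and Mt2 had 0.87, adjusted p = 0.27, and 1.66, adjusted p = 0.15. Lcn2, an acute phase protein, had 1.89, adjusted p = 0.17. The list's mean log2 level was -0.53 to 0.10 (median -0.20) in IRS1KO sham and -0.16 to 0.72 (median -0.02) in IRS1KO TAC hearts, against -0.11 to 0.46 (median 0.41) and -0.45 to -0.06 (median -0.17) in IRS2KO. Each pair of groups overlapped, and WT was at 0.01 to 0.24 (median 0.18) in sham and -0.05 to 0.67 (median 0.54) in TAC hearts. Cdkn1a, Pdk4 and Tsc22d3 stand in both the FoxO and the glucocorticoid list. Among 24 immediate early genes tested none was called (median 0.22), with Nr4a3 (1.97, adjusted p = 0.11) and Zfp36 (0.72, adjusted p = 0.2) the members of smallest p.

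**Figure D4:**
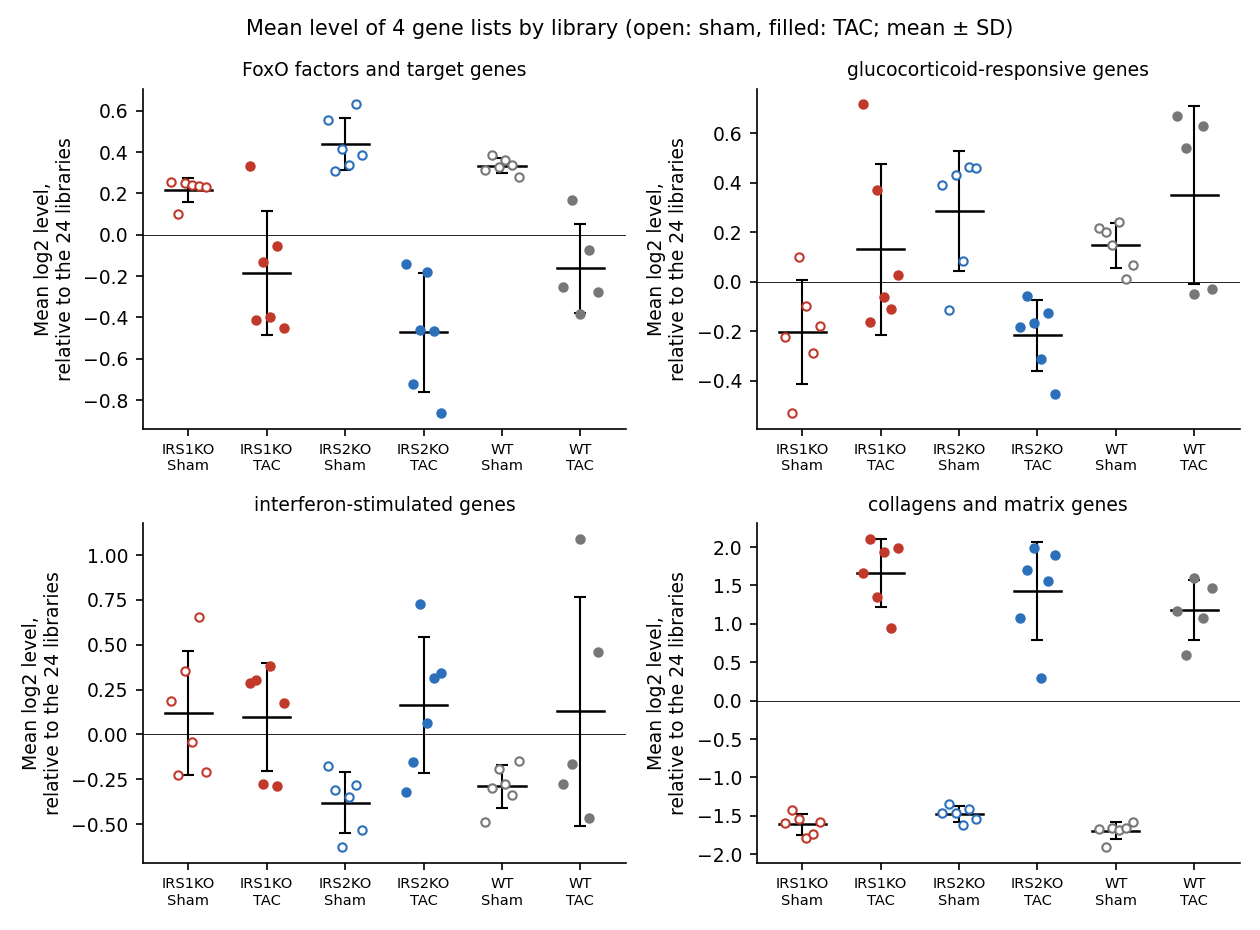
Mean log2 level of the members of 4 gene lists in each library (y axis, relative to the mean of the 24 knockout libraries) by group (x axis), open circles for sham and filled for TAC, with the mean and SD. In IRS2KO the TAC libraries lie below all sham libraries for the FoxO list, which is also the case for 5 of the 6 IRS1KO TAC libraries; the collagen list separates sham from TAC in every genotype.

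Interferon-stimulated genes, which encode antiviral proteins, had the lowest median of the lists with at least 10 members tested, and none was called. Of 23 members 22 were below 0, with a median of -0.57 and a range of -1.03 to 0.28, and Rsad2 (0.28, adjusted p = 0.78) was the 1 above 0. Stat2, a transcription factor of the interferon response, had means of 342 ± 63.4 and 291 ± 42.5 in IRS1KO and 219.7 ± 18.6 and 309 ± 86.1 in IRS2KO (difference -0.68, adjusted p = 0.23). Gbp3, an interferon-induced GTPase, fell in IRS1KO from 363 ± 184 to 169.7 ± 26.98, against 157 ± 38.3 and 163 ± 44.9 in IRS2KO (difference -1.001, adjusted p = 0.25). The level of the list ran -0.23 to 0.66 (median 0.07) in IRS1KO sham, -0.29 to 0.38 (median 0.23) in IRS1KO TAC, -0.63 to -0.18 (median -0.33) in IRS2KO sham and -0.32 to 0.73 (median 0.19) in IRS2KO TAC hearts, with overlap between the groups. The class II antigen presentation genes H2-Ab1 and Cd74 also lay below 0. H2-Ab1 had means of 553 ± 284 and 383 ± 127 in IRS1KO and 167 ± 51.1 and 302 ± 183 in IRS2KO (difference -1.25, adjusted p = 0.19). Cd74 had a difference of -1.10, adjusted p = 0.2. IRS1KO sham replicate 5 had the highest H2-Ab1 (1124) and Cd74 (3069) of its group. Without it Gbp3 had an adjusted p of 0.39 and Cd74 one of 0.3, the highest over the fits without 1 library. Of 20 cytokines and chemokines tested none was called (median -0.37).

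All 18 cardiac stress and fetal genes tested rose after TAC in both genotypes, as did 41 of 43 collagen and matrix genes, and none of either list had a called difference. Nppa, the atrial natriuretic peptide gene, ran from 3125 to 4936 (median 4166) in IRS1KO sham and 16311 to 23883 (median 20703) in IRS1KO TAC hearts. In IRS2KO it ran from 553 to 1184 (median 852) and 4420 to 14886 (median 12654). It rose in both (log2 2.31 and 3.59) and was higher in IRS1KO than in IRS2KO sham hearts (log2 2.21, adjusted p = 8.3e-09). The atrial marker list, 4 of 8 members tested with Nppa among them, lay at -0.40 to 0.13 (median -0.12) in IRS1KO sham and -0.93 to -0.59 (median -0.79) in IRS2KO sham hearts, without overlap, and at -1.01 to 0.27 in WT sham hearts. Stard10 of that list was also higher in IRS1KO sham hearts (log2 0.84, adjusted p = 0.0063), whereas Myl4 (0.20, adjusted p = 0.82) and Dkk3 (-0.67, adjusted p = 0.083) were not called, and the other 4 members, Myl7, Sln, Bmp10 and Fgf12, had a mean below 10. Nppa had the largest sham difference of the 4, so the list level in part restates Nppa. The part of atrial tissue in the Nppa values was not tested. The Nppa difference, -1.28 (SE 0.32, adjusted p = 0.061), missed the threshold in limma and passed it in edgeR (adjusted p = 0.039) and DESeq2 (0.0047). Without the 3 TAC libraries of highest mitochondrial share, an omission chosen after seeing the data, its limma adjusted p was 0.0011. Of 18 cardiac stress and fetal genes tested none was called, 9 were above 0 and 9 below, and the median was 0.06. Mybpc2, a fast-muscle myosin-binding protein, had the next smallest p of that list (-0.81, adjusted p = 0.18).

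Of 43 genes tested in the collagen and matrix list, which leaves out Col28a1, none was called and 38 were above 0, with a median of 0.36. The median response was 2.83 in IRS1KO and 2.46 in IRS2KO. Col11a1, a fibrillar collagen chain, rose in both, from 1.52 ± 1.25 to 355 ± 205 in IRS1KO and from 1.34 ± 0.392 to 76.00 ± 55.7 in IRS2KO. Its difference was 2.53 (SE 0.85, adjusted p = 0.2), with a wide spread in both TAC groups and sham means near 0. Neither edgeR (adjusted p = 0.79) nor DESeq2 (0.5) called Col11a1. Mfap5, a microfibril protein, had 0.75, adjusted p = 0.2. Col28a1, a collagen gene outside the list, was called above 0 (difference 1.39 (SE 0.33, adjusted p = 0.046)). Its means were 19.8 and 25.8 in IRS1KO sham and TAC hearts and 41.1 and 21.8 in IRS2KO. It was called in 5 of the 24 fits without 1 library and not by edgeR (adjusted p = 0.08). The list level was 0.94 to 2.10 (median 1.80) in IRS1KO TAC and 0.30 to 1.99 (median 1.63) in IRS2KO TAC hearts, and the lowest IRS2KO library was replicate 4, that of the highest mitochondrial share.

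**Figure D5:**
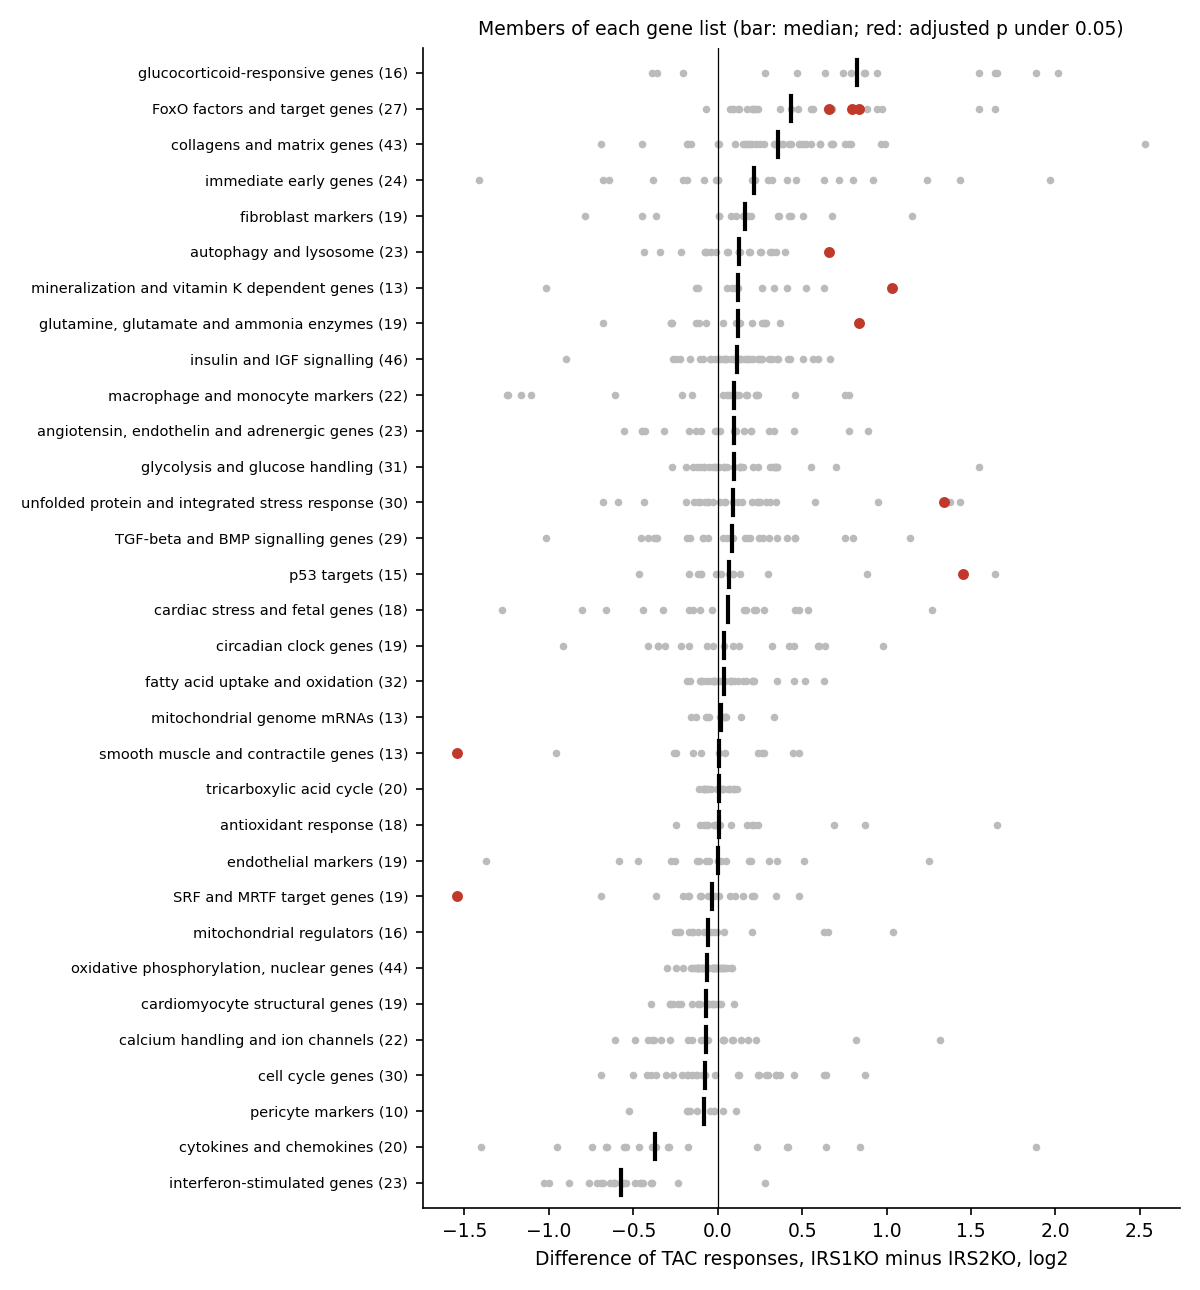
The difference of the TAC responses (x axis, log2) for each member of the 32 lists with at least 10 members tested (y axis, members tested in brackets), with a bar at the median and red for members at an adjusted p under 0.05. Most medians lie near 0, the interferon list lies to the left and the glucocorticoid and FoxO lists to the right.

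Markers of the other cells in the apex showed no called member, apart from those named above. Some lists were mostly not tested: 0 of 9 adipocyte, 2 of 9 neutrophil and 3 of 16 T, NK and B cell markers were. The same holds for nerve and Schwann cell markers (3 of 10) and, in part, mesothelial markers (4 of 8). For these cells the absence of a call says little. The 3 T, NK and B cell markers tested were below 0, with a median of -0.62. A change in bulk RNA cannot tell fewer cells of a type from less RNA per cell. Of 19 fibroblast markers 16 were above 0 (median 0.16), with Tcf21 (-0.78, adjusted p = 0.12) and Pdgfra (0.42, adjusted p = 0.15) of smallest p and opposite sign. Of 22 macrophage and monocyte markers 15 were above 0 (median 0.10), and of 19 endothelial markers 9 (median 0.00), with Egfl7 (-0.59, adjusted p = 0.14) and Aplnr (-1.37, adjusted p = 0.15) of smallest p. The erythroid list had a median of 0.45 over 7 members tested. In TAC hearts the summary level of macrophage markers was 0.50 to 1.70 (median 1.26) in IRS1KO and -0.06 to 1.74 (median 1.31) in IRS2KO, that of fibroblast markers 0.50 to 0.99 (median 0.85) and 0.33 to 1.04 (median 0.63), and that of endothelial markers -0.49 to -0.07 (median -0.30) and -0.57 to 0.05 (median -0.32). In sham hearts the macrophage level was -1.18 to -0.72 (median -1.04) and -1.47 to -0.95 (median -1.23), and the fibroblast level -1.05 to -0.53 (median -0.77) and -0.92 to -0.52 (median -0.68). The 2 genotypes overlapped in each of these. The sham levels of the atrial list did not overlap, but that level includes Nppa itself, the member with the largest sham difference. The part of these cell types in the called differences was not tested.

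Contractile and energy genes had list medians near 0. Cardiomyocyte structural genes (19 tested, median -0.07), nuclear genes of oxidative phosphorylation (44 tested, median -0.06), mitochondrial mRNAs (13, 0.02), the tricarboxylic acid cycle (20, 0.01) and fatty acid oxidation (32, 0.03) had no called member. Members of the oxidative phosphorylation list ran from -0.30 to 0.09, although the list fell by a median of 0.933 in IRS1KO and 0.883 in IRS2KO on the log2 scale. The ranges were -0.40 to 0.10 for structural genes, -0.16 to 0.33 for mitochondrial mRNAs, -0.11 to 0.12 for the tricarboxylic acid cycle and -0.19 to 0.63 for fatty acid oxidation. Calcium handling and ion channel genes (-0.61 to 1.31) and glycolysis genes (-0.27 to 1.55) spread more widely. Ppargc1a, the coactivator that drives mitochondrial biogenesis, fell in IRS2KO (log2 -1.58, adjusted p = 0.00017), with a change in IRS1KO of -0.54, adjusted p = 0.16, and a difference of 1.04, adjusted p = 0.4. Pparg, its partner nuclear receptor, had 0.65, adjusted p = 0.22. Gys1, muscle glycogen synthase, had 0.35, adjusted p = 0.19, and the glycolysis list of 31 had a median of 0.10. Of 22 calcium handling and ion channel genes none was called (median -0.07), with the potassium channel gene Kcna5 of smallest p (0.82, adjusted p = 0.19). Of 30 cell cycle genes none was called (median -0.07), with the cyclin Ccnd1 of smallest p (-0.69, adjusted p = 0.2). Without the 3 TAC libraries of highest mitochondrial share, Ppargc1a (0.028), Gys1 (0.011), Pdgfra (0.04) and Cd74 (0.035) passed the threshold, as adjusted p from limma. This omission was chosen after seeing the data and takes out no IRS1KO library, so these genes are not counted as called. With all libraries their limma adjusted p were 0.4, 0.19, 0.15 and 0.2, in that order.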

How the data were processed

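Poly(A)-selected, stranded RNA-seq libraries were made from apex RNA from 35 mouse heart samples, per the labels' protocols. The authors deposited normalized counts, a signal for each gene and library. Per the submitters' processing notes the tools were HTSeq 0.7.1, HISAT2 2.0.6 and DESeq2 (no version), with the GRCm38 genome. Each library's values were whole multiples of 1 step for 100% of genes (tolerance 0.001), so reads were recovered. Symbols and coordinates came from GENCODE vM21 (99.6% of identifiers matched) and promoters from RefSeq.

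Differences were tested with limma 3.58.1 in R 4.3.3 (trend, robust) on log2(value + 1), for genes with a mean of at least 10, in 1 model of 6 group means over 35 libraries. Tests were two-sided, adjusted by Benjamini-Hochberg over 13695 genes, with a threshold of 0.05; the pseudocount understates the change of low genes. edgeR 4.0.16 and DESeq2 1.42.0 on recovered reads, other scalings, filters and omissions of a library were alternatives, and the scripts were tested on simulated data. Named genes were Irs1, Irs2, Acta2, Mgp, Glul, up to 20 called genes in each direction with the largest difference and a mean of at least 100 in 1 group, and the leading members of each list. The members and lists were chosen with earlier results of these data known. Folds are ratios of group means, left out below a mean of 3.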

Additional observations from a re-analysis of the deposited data

Results flagged for a closer look

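Within a group of 6 libraries, a value was singled out when its gap to the nearest other library exceeded 0.625 of the group's whole range. Of 328 groups checked (82 genes in the 4 knockout groups), 31 had such a library, 9.45%, where chance gives about 1 in 20. IRS1KO TAC replicate 1 stood apart in 6 of these, among them Trp53inp1 (666 normalized counts, the others 276 to 336), Rasgef1b (259 normalized counts, the others 78.3 to 139) and Glns-ps1 (75.8 normalized counts, the others 50.3 to 55.3). It also stood apart for Gabarapl1 (1213 normalized counts, the others 822 to 888), Chac1 (133 normalized counts, the others 57.5 to 72.6) and Foxo3 (1600 normalized counts, the others 753 to 1066). For IRS1KO TAC replicate 5 there were 5, among them Cd200 (619.5 normalized counts, the others 352 to 426), Gm45012 (5.95 normalized counts, the others 0 to 0.971) and Lrat (70.4 normalized counts, the others 4.76 to 21.4). It also stood apart for Stat2 (211 normalized counts, the others 289 to 332) and Irs1 (80.3 normalized counts, the others 0 to 26.7). IRS2KO TAC replicate 3 accounted for 4, among them Rasgef1b (160.3 normalized counts, the others 52.9 to 92.8), Nox4 (64.3 normalized counts, the others 30.7 to 42.8) and H2-Ab1 (651 normalized counts, the others 180.2 to 347). It also stood apart for Cd74 (1889 normalized counts, the others 467 to 919). Another 3 came from IRS2KO sham replicate 2, Lrat (2.13 normalized counts, the others at 0), Col11a1 (2.13 normalized counts, the others 1.08 to 1.28) and Zfp36 (352 normalized counts, the others 511 to 583). IRS1KO sham replicate 5 stood apart in 2 of these, H2-Ab1 (1124 normalized counts, the others 393 to 516) and Cd74 (3069 normalized counts, the others 1210 to 1692). For IRS2KO sham replicate 3 there were 2, Sod2 (7005 normalized counts, the others 7419 to 7655) and Foxo1 (472 normalized counts, the others 375 to 407). IRS2KO TAC replicate 1 accounted for 2, Efhd1 (50.6 normalized counts, the others 33.5 to 36.6) and Tcf21 (151 normalized counts, the others 86.6 to 105). Single values were those of Kcna5 in IRS1KO sham replicate 2 (216 normalized counts, the others 343 to 389.5) and Tlr8 in IRS1KO sham replicate 3 (26.9 normalized counts, the others 12.6 to 17.3). Others were those of Gm45012 in IRS1KO sham replicate 4 (1.02 normalized counts, the others at 0) and Gys1 in IRS1KO TAC replicate 3 (1820 normalized counts, the others 1472 to 1591). Further single values were Rab40b in IRS2KO sham replicate 5 (78.2 normalized counts, the others 39.7 to 47.97) and Rlf in IRS2KO TAC replicate 2 (542 normalized counts, the others 341 to 412). The last was that of Ephb1 in IRS2KO TAC replicate 4 (43.8 normalized counts, the others 16.5 to 23.2).

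The TAC response differed between IRS1KO and IRS2KO, by limma's test of the difference itself, for each of 45 called genes named in the text. Col28a1 and Rasl10a are left out of these 45. On the log2 scale, IRS1KO minus IRS2KO, the differences below 0 were Elovl7 -3.64, Lrat -2.73, Itgb6 -1.55, Acta2 -1.54, Efhd1 -1.53, Ephb1 -1.50, Plekha7 -1.29, Pirt -1.18, Cd200 -1.12 and Phyhip -0.95. Nearer to 0 were Cep128 -0.78, Klhl40 -0.70, Mboat2 -0.70, Meis1 -0.67, Pde4b -0.64, Mtus2 -0.62, Samd1 -0.60, Ano10 -0.56 and Pdcd7 -0.45. The differences above 0 were led by Gm45012 2.69, Tlr8 1.73, Fam117b 1.58, Nxpe4 1.55, Rasgef1b 1.47, Trp53inp1 1.46, Rab40b 1.44, Chac1 1.34, Nox4 1.25 and Glns-ps1 1.05. They continued with Mgp 1.03, Epb41l3 0.99, Fam124a 0.96, Glul 0.83, Pygl 0.81, Bnip3 0.79, Limd1 0.79, Lrrc58 0.78, Mpp7 0.76 and Rlf 0.70. The smallest were Mgat4a 0.69, Pgm2l1 0.68, Slc43a2 0.67, Gabarapl1 0.66, Atg13 0.48 and Rb1cc1 0.41.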

How the results depend on the processing

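The 36 genes called above 0 and 20 below 0 changed in number with several settings, and the cause was not tested unless stated. A pseudocount of 0.5 gave 36 and 18, a pseudocount of 5 gave 39 and 23, and a mean of at least 50 gave 31 and 16. Without a filter on low values, where more genes were tested, 14 and 12 were called. Scaling each library to the same total gave 9 and 16, so that most calls then lay below 0, and quantile normalization gave 18 and 16. Fitting the 4 knockout groups alone, with fewer libraries behind the spread, gave 9 and 12. Library weights gave 92 and 46. On the recovered reads, edgeR's quasi-likelihood test called 21 and 22 and DESeq2 106 and 51. Leaving out the 3 TAC libraries with the highest mitochondrial share, an alternative chosen after seeing the data, gave 246 and 114. Leaving out 1 library at a time gave 6 (without IRS1KO TAC replicate 1) to 115 (without IRS1KO TAC replicate 5) genes above 0. The same gave 10 (without IRS1KO TAC replicate 4 or IRS2KO sham replicate 5) to 65 (without IRS1KO TAC replicate 5) below 0. None of the 56 called genes changed sign in any alternative or leave-one-out fit. All 24 leave-one-out fits called 15 of the 56, all 12 alternatives called 11, and 10 were called in both. Efhd1 and Elovl7 were called in all 24 and in the 11 alternatives that tested them. Of the 56, edgeR called 40 and DESeq2 55. Among the other genes named, Sod2, at -0.07 and not called, reversed without being called. It stood at 0.28 without those 3 TAC libraries, 0.013 without IRS1KO TAC replicate 2, 0.00644 without IRS1KO TAC replicate 6, 0.0492 without IRS2KO TAC replicate 1 and 0.0934 without IRS2KO TAC replicate 4, and over all leave-one-out fits it ran from -0.20 (without IRS2KO TAC replicate 6) to 0.0934.

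With the replicate number as a block, 44 genes were called above 0 and 21 below, 48 of the 56 among them. The 8 not called were Slc43a2, Lrat, Nox4, Mpp7, Pygl, Pde4b, Mgat4a and Rasl10a (adjusted p up to 0.0532), and Bnip3l (0.044) and Fkbp5 (0.047) were called with the block. The labels do not say that a number marks a shared animal, batch or day. Deviations from the group means of same-numbered libraries correlated at a median r of 0.096 across genes (-0.52 to 0.57 over 36 pairs), and 17 pairs exceeded 0.1. The best match was the library of the same number in 18 of the 36, from 1 of 6 for IRS1KO TAC with IRS2KO sham to 5 of 6 for the 2 sham groups, a hint from the data. Each library had 6 candidates, so about 1 in 6 would match by chance. Since not every pair exceeded 0.1, a strict rule, the numbers were not taken to pair the libraries. Whether same-numbered libraries shared an animal, batch or day was not tested. Precision was lower for genes of low level: the median SE of the difference was 0.35 for genes whose group means averaged under 50 normalized counts and 0.15 for those at 1000 or more.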
